A study of Homo sapiens with 32 samples.

Results

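IFI44 and IFI44L are neighbouring interferon-induced genes on chromosome 1, and they are described here in human monocytic THP-1 cells that lack ATP-citrate lyase (ACLY) or carry a catalytically inactive form of it. They are 2 of the 60107 genes counted, taken by symbol (IFI44, ENSG00000137965; IFI44L, ENSG00000137959). The pair was chosen by its known difference between ACLY knockout cells and cells with inactive ACLY and by earlier known differences from wild type, so differences between lines are given as levels without a test. Tests are given for the response to LPS within a line and for the change of the IFI44L to IFI44 ratio with LPS. These were not the contrasts of the choice, but they share libraries with it, and the level of IFI44 in S455A cells after LPS was among the values known.

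The data are 32 libraries in 8 groups of 4. The KO cells are THP-1 cells with the ACLY gene knocked out, and the other 3 lines are such knockout cells transduced by lentivirus with a coding sequence behind an EF promoter and a puromycin marker: wild-type ACLY (WT), ACLY H760A (HA), which has no catalytic activity, or ACLY S455A (SA), which cannot be phosphorylated at that serine. Each line was left untreated or received LPS, a component of bacterial outer membranes that is sensed through TLR4, at 100 ng/ml for 3 hours by the labels, while a paragraph of the methods gives a lower dose. All cells therefore lack the native ACLY protein, each genotype is 1 line, and it is not stated whether KO cells went through transduction, so other differences between the lines cannot be told apart from the genotype.

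IFI44 and IFI44L encode related cytoplasmic proteins that are among the genes most regularly induced by type I and type III interferons. Interferon receptors act through the kinases JAK1 and TYK2 on transcription factors, STAT2 with IRF9 among them, that bind the interferon-stimulated response element (ISRE) in target promoters. LPS reaches the same element through TLR4, the adaptor TICAM1 and the kinase TBK1, which activate IRF3 and interferon-beta production. IFI44L has been described as a feedback regulator that dampens interferon responses through FKBP5 and the kinases IKBKB and IKBKE.

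Both genes lie on the plus strand of GRCh38 (GENCODE release 44), IFI44L at chr1:78619902-78646145 and IFI44 at chr1:78649796-78664078, with 3650 bases between them. The canonical transcript of each has 9 exons, and no other annotated gene overlaps either of them. The sequences upstream of a RefSeq start site of each gene are shown because both genes are known ISRE targets and are set beside other such genes. They are the 250 bases before the RefSeq start site (GRCh38.p14, plus strand), chr1:78649539-78649788 for IFI44 and chr1:78620198-78620447 for IFI44L, and the capitals mark matches to the ISRE core TTTCNNTTTC or its reverse GAAANNGAAA and to a wider form with 3 bases between the repeated letters.
IFI44: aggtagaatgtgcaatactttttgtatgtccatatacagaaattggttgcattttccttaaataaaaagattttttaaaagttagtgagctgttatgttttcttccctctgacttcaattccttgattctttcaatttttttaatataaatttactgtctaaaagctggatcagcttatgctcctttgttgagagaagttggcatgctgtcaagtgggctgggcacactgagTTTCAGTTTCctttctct
IFI44L: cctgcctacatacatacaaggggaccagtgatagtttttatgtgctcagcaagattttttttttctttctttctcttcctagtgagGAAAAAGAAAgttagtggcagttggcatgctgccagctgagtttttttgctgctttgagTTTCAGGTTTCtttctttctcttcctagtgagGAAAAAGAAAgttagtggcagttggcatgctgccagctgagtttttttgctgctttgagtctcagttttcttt

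The IFI44 window holds 1 core match, TTTCAGTTTC, whose first base lies 18 bases before the start site. The IFI44L window holds the reverse core GAAAAAGAAA at 2 places, 164 and 73 bases before the start, and between them the wider form TTTCAGGTTTC at 105 bases, a spacing that was searched for after the sequence had been seen. The 2 core matches of IFI44L lie in the copies of a direct repeat of 85 bases. The longest run that the 2 windows share is 13 bases, agttggcatgctg. Both strands were searched. A second RefSeq window of IFI44, from a later start site, held the same core match 60 bases before that site. The IFI44L window lies within the annotated span of the gene. A core match was present in 3.57% of the 35116 RefSeq windows of 300 bases, 250 before to 50 after the start, and the wider form TTTCNNNTTTC in 2.86%. Counted by gene, 4.38% of 27305 genes held the core in any of their windows. Counted in the same way, 29 of 43 ISRE-type targets with a window held the core, and of 11 IFN-gamma-type targets 8 did. Neither member's window held the GAS letters TTCNNNGAA, which 7.66% of all windows hold. These matches are descriptions of letters and not of bound sites.

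Counts are reads at the 3′ end of transcripts, divided by size factors computed jointly over the 32 libraries, and are called normalized counts. The libraries had 6504099 to 14750815 reads on genes, and 12406 genes passed the filter of a mean deposited count of at least 10, both members among them. IFI44L had a mean of 1880.4 normalized counts over all libraries, the rank of 929 among the genes tested, from 291 to 5272 reads per library. IFI44 had 314 and the rank of 4700, from 81 to 951 reads. SA LPS replicate 1 stood apart from its group over all genes, with a root mean square log2 deviation of 1.415 against 0.273 to 0.828 elsewhere. ACLY itself had 60.3 to 329 normalized counts per library in all 8 groups, but 3′ reads lie away from an edit and the transgenes carry the coding sequence alone, so this checks no label. The 329 was also from SA LPS replicate 1, against 95.8 to 110.3 in the other libraries of its group.

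All 8 monocytic markers on the list passed the filter, and CD3E, CD3G, KRT19 and COL3A1, which mark T cells, epithelium and fibroblasts, had no read in any library. Single monocytic markers differed between the lines in both directions. LYZ (lysozyme) had 18560 ± 6570 normalized counts in untreated KO cells (SD, n = 4), 14950 ± 3510 in HA, 4851 ± 1000 in WT and 4518 ± 1420 in SA. CD33 and ITGAM had lower means in untreated KO and HA than in WT cells, with 275.6 ± 36 and 297.9 ± 35 against 376.4 ± 25.1 for CD33 and 85.64 ± 39.1 and 54.67 ± 10.3 against 114.4 ± 11.6 for ITGAM. Over the 8 markers, the median log2 difference from WT without LPS was 0.39 in KO and 0.1 in HA. Their summed level per library, of which LYZ makes up the most, was 16366 to 29822 in KO, 14487 to 21778 in HA, 6599 to 8321 in WT and 6395 to 8645 in SA, and 18869.6 to 36285, 14752 to 21552, 5796 to 8296 and 7665 to 9298 in the same order after LPS. The 7 epithelial and fibroblast markers summed to at most 39.0 normalized counts in any library, and were higher in WT, at 25.8 to 38.5 without LPS, than in KO, at 3.68 to 12.2. The part of these marker levels in the differences between lines was not tested. More cells that express a gene and more RNA of it per cell cannot be told apart in these bulk samples.

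IFI44L was highest in KO cells and lowest in WT cells, with HA cells between them (see the plot of both genes by library). In untreated cells, the 4 KO libraries had 4433, 4751, 2850.2 and 3767 normalized counts (3950.2 ± 840.1, SD, n = 4 here and below), and the HA libraries had 1994, 1297, 1444 and 1193 (1482 ± 356). The WT libraries had 417, 365, 438 and 522 (435 ± 65.6), and the SA libraries had 598, 558, 763 and 686 (651 ± 91.6). Without LPS, no library of one line overlapped with those of another: every KO library was above every HA library, every HA above every SA, and every SA above every WT.

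**Figure D1:**
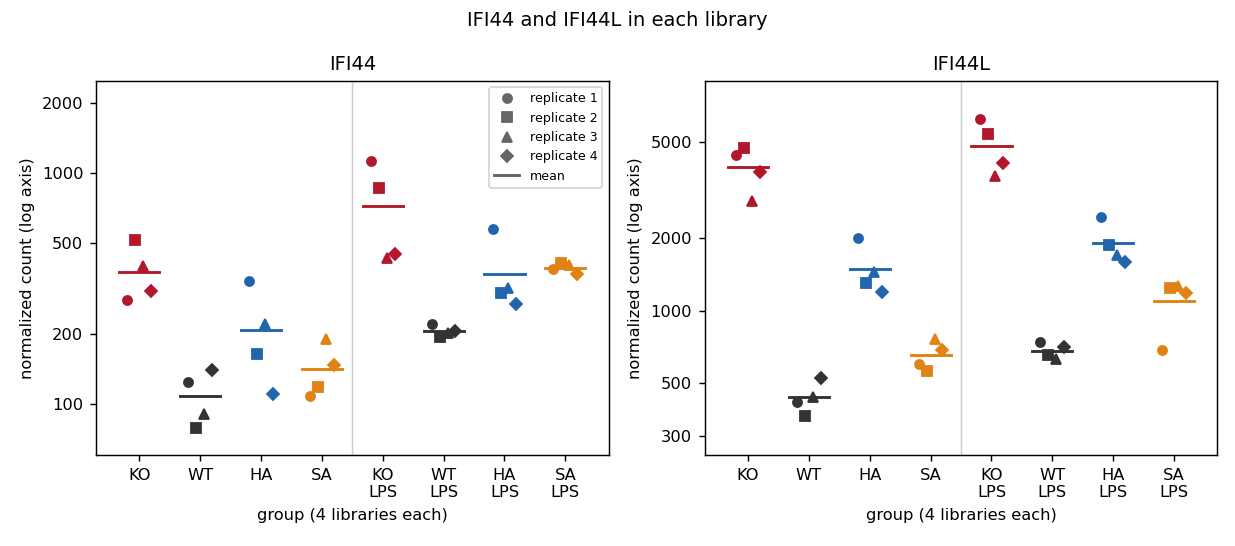
Normalized counts of IFI44 (left) and IFI44L (right) on log axes in the 32 libraries, by group; each symbol is 1 library, its shape gives the replicate number and the line marks the group mean. IFI44L in KO cells (2850.2 to 4751 untreated) lies above all libraries of the other 3 lines, while for IFI44 the KO and HA libraries overlap.

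After LPS, IFI44L had 6253, 5409, 3627 and 4116 normalized counts in KO (4851 ± 1199) and 2439, 1864, 1708 and 1588 in HA (1899.9 ± 377). The WT libraries had 738, 650.3, 626 and 702 (679 ± 50.3), and the SA libraries had 684, 1239, 1266 and 1188 (1094 ± 275). The single low SA value, 684, is from SA LPS replicate 1, and it is why the SA and WT libraries overlap under LPS. In the order of group means, KO LPS was followed by KO, HA LPS, HA, SA LPS, WT LPS, SA and WT. Of these neighbours, only KO and HA LPS, and SA and WT, had libraries that did not overlap.

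IFI44 had lower counts and more overlap. Untreated KO libraries had 281, 513, 396 and 307 normalized counts (374 ± 105), HA libraries 339.6, 164, 223 and 111 (209.5 ± 98.0). The WT libraries had 125, 78.7, 90.7 and 140 (108 ± 28.6), and the SA libraries 108, 119, 192 and 148 (142 ± 37.7). KO was above WT in every library, while the HA libraries reached from the WT range into the KO range.

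After LPS, IFI44 had 1128, 863, 430 and 445 normalized counts in KO (717 ± 340), where replicates 1 and 2 were higher than replicates 3 and 4. The HA libraries had 572, 301, 317 and 272 (365 ± 139), with replicate 1 far above the others. The WT libraries had 223, 195, 203 and 208 (207 ± 11.8), and the SA libraries had 383, 407, 398 and 366 (389 ± 18.0), so that every SA library was above every WT library. In the order of group means, KO LPS was followed by SA LPS, KO, HA LPS, HA, WT LPS, SA and WT. Of these neighbours, only KO LPS and SA LPS, and WT LPS and SA, had libraries that did not overlap.

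The KO cells lack ACLY protein and the HA cells carry an inactive one. Each is 1 line and only HA is known to have been transduced, so the presence of the protein cannot be told apart from other differences between them. For IFI44L, KO was 2.67-fold above HA in the ratio of means without LPS and 2.55-fold with LPS, with no overlap of libraries in either state. The log2 difference was 1.42 (standard error 0.2 of the limma fit) and 1.34 (0.2). This placed IFI44L at rank 274 and rank 250 of the 12406 genes, counted here and below from the most positive difference. For IFI44, the ratio of means was 1.79 and 1.96, the log2 difference 0.91 (0.31) in both states, at rank 796 and rank 700, and the libraries overlapped each time. These differences chose the genes and are not tested, and the share of all genes whose libraries do not overlap is not given here. Over all genes tested, limma called 0.202% higher in KO without LPS and 0.00806% with LPS, and the median difference was -0.007 without LPS and 0.01 with LPS.

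Set against WT, the other 3 lines had higher means of both genes in either state. Without LPS the order was KO, HA and SA for both, while with LPS the mean of IFI44 was higher in SA than in HA, with overlapping libraries. KO was above WT by 3.16 (0.2) on the log2 scale without LPS and 2.8 (0.2) with it for IFI44L, at rank 18 and rank 32 of the genes tested, against 1.77 (0.31) and 1.66 (0.31) for IFI44. HA was above WT by 1.75 and 1.47 for IFI44L and by 0.86 and 0.75 for IFI44. SA was above WT by 0.58 and 0.65 for IFI44L and by 0.39 and 0.9 for IFI44. The WT libraries enter all 3 of these differences, so they are not independent of each other. On the deposited scale, where each line was normalized by itself, lines shift against WT by -0.1 (KO), 0.15 (HA) and 0.26 (SA) on the log2 scale, and no direction of these differences turned.

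**Figure D2:**
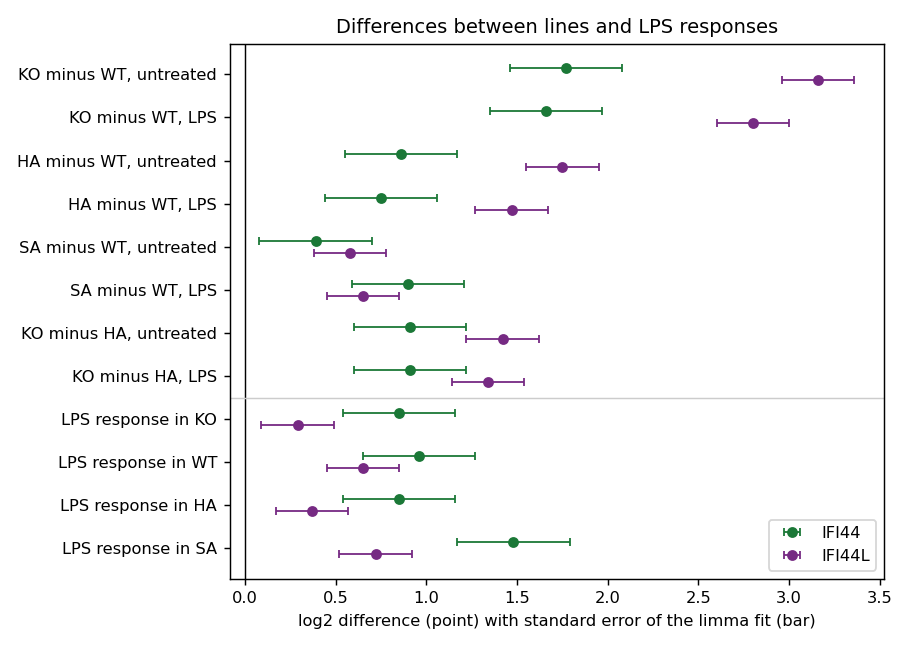
Log2 differences of IFI44 and IFI44L (x axis) in 12 comparisons (y axis), with points for the estimates and bars for the standard errors of the limma fit. Differences between lines were used in choosing the genes and are shown as a description; IFI44L reaches 3.16 in KO against WT, while its LPS responses run from 0.29 to 0.72.

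The means of both genes were higher with LPS than without in all 4 lines, and for IFI44L these differences were smaller than those of KO or HA against WT. The LPS response is the log2 difference between LPS and untreated libraries of a line. For IFI44 it was 0.85 in KO, 0.96 in WT, 0.85 in HA and 1.48 in SA, each with a standard error of 0.31. With limma and Benjamini-Hochberg adjustment over 12406 genes, the SA response was called (adjusted p = 9.11e-03, limit 0.01), and 0.468% of all genes were called higher in that line. Every SA LPS library was above every untreated SA library, but the share of all genes for which this holds is not given here. The responses in KO (adjusted p = 4.07e-01), HA (5.37e-01) and WT (6.03e-01) were not called, in lines where 0.508%, 0.387% and 0.25% of genes were called higher. This call is not independent of the choice, since the SA LPS libraries served an earlier known difference from WT. It sits close to the limit: it was lost without a filter on low counts, with only the groups compared in the fit and on a total-reads scale (adjusted p of 1.76e-02 to 3.35e-02), and when any of 7 of the 8 SA libraries was left out, all but untreated replicate 3, with adjusted p of 2.14e-02 to 6.22e-02.

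For IFI44L the LPS response was 0.29 in KO, 0.65 in WT, 0.37 in HA and 0.72 in SA, each with a standard error of 0.2, and none was called by limma (adjusted p = 1.00e+00, 5.85e-01, 9.95e-01 and 1.30e-01). Without SA LPS replicate 1, its SA response was 0.93 (adjusted p = 1.15e-02). The replicate numbers paired untreated and LPS libraries in the WT and KO lines. In the paired limma fit, which takes the spread from the line itself, the WT responses of IFI44 (0.96, adjusted p = 3.15e-04) and IFI44L (0.65, adjusted p = 1.07e-04) were both called, and 0.943% of all genes were called higher. For both genes every WT LPS library was above every untreated WT library, but the share of all genes for which this holds is not given here. The paired fit left the KO responses uncalled (adjusted p = 1.56e-01 for IFI44 and 3.31e-01 for IFI44L).

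The difference of LPS responses between lines is the difference of line contrasts that chose the genes, so for the pair it is given as a description. For KO against WT it was -0.11 for IFI44 (95% interval -1 to 0.78) and -0.36 for IFI44L (-0.95 to 0.23), where 0.00806% of genes, 1 in all, were called in either direction. For KO against HA it was 0 (-0.89 to 0.89) and -0.08 (-0.67 to 0.51), for HA against WT -0.11 (-1 to 0.78) and -0.28 (-0.87 to 0.31), and for SA against WT 0.52 (-0.37 to 1.41) and 0.07 (-0.52 to 0.66). In each of these 3 comparisons limma called 0 genes, 0% of those tested, with 137, 142 and 457 genes at an unadjusted p under 0.05.

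The ratio of IFI44L to IFI44 within a library removes only a change of equal fold in both genes. A change that both genes share but that is larger in one of them stays in the ratio. Read as a ratio of counts, not of transcripts, the ratio was 15.8, 9.25, 7.2 and 12.3 in untreated KO libraries and 5.54, 6.26, 8.43 and 9.25 after LPS. In HA it was 5.87, 7.89, 6.48 and 10.7 and then 4.27, 6.19, 5.39 and 5.85. The WT libraries had 3.34, 4.64, 4.83 and 3.73 and then 3.31, 3.33, 3.09 and 3.37, and the SA libraries 5.53, 4.7, 3.97 and 4.63 and then 1.79, 3.04, 3.18 and 3.25. IFI44L thus stood in a higher ratio to IFI44 in KO and HA than in WT and SA, which follows from the differences that chose the genes.

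With LPS, the mean ratio was lower in all 4 lines, and this test was added after the values had been seen. The log2 ratio differed by -0.56 in KO (two-sided exact permutation p = 0.1143), by -0.32 in WT (exact p = 0.0571), by -0.49 in HA (exact p = 0.0571) and by -0.77 in SA (exact p = 0.0286, the smallest that 4 against 4 libraries allow). After Benjamini-Hochberg adjustment over the 4 lines none was below 0.05 (0.1143 in KO, 0.0761 in each of the others). In the paired lines, the ratio was lower with LPS in 4 of 4 same-numbered pairs in WT (exact sign-flip permutation p = 0.125, the smallest that 4 pairs allow) and in 3 of 4 in KO (exact p = 0.25). Only in SA did the libraries not overlap, and without SA LPS replicate 1 the difference there was -0.57 (exact p = 0.0571, the smallest possible for 3 against 4).

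**Figure D3:**
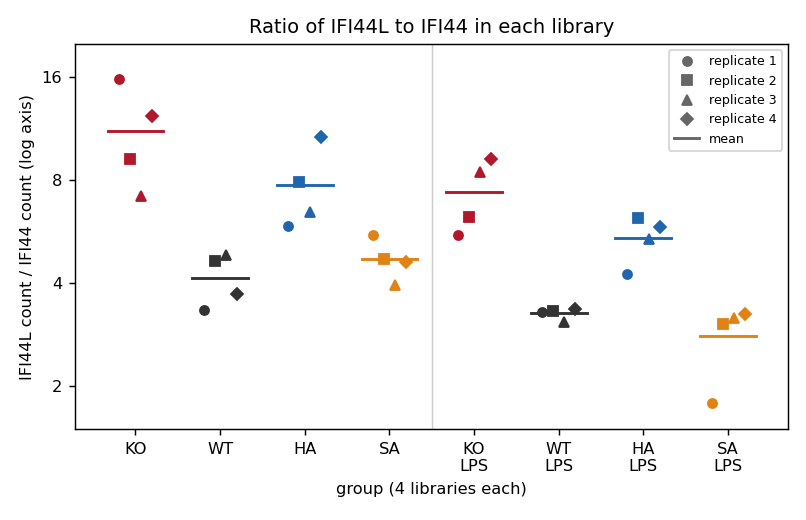
IFI44L count divided by IFI44 count in each of the 32 libraries (y axis, log scale) by group; symbols give the replicate number and lines the group means. The mean ratio is 11.1 in KO, 7.74 in HA, 4.71 in SA and 4.14 in WT without LPS, and 7.37, 5.42, 2.81 and 3.27 with LPS.

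Within groups, libraries that were high for one gene tended to be high for the other. Measured as the deviation of log2 counts from the group mean, both genes deviated the same way in 26 of 32 libraries, with r = 0.698 over the 32 deviations, which share library and depth between the genes. HA replicate 1 (0.81 for IFI44 and 0.46 for IFI44L), KO LPS replicate 1 (0.78 and 0.4) and HA LPS replicate 1 (0.71 and 0.38) were high for both. The mean of the ISRE-type targets was also above its group mean in these libraries, by 0.48, 0.31 and 0.4. SA LPS replicate 1 was low for IFI44L (-0.63) and at the group mean for IFI44 (-0.02) and for the ISRE-type targets (-0.03).

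**Figure D4:**
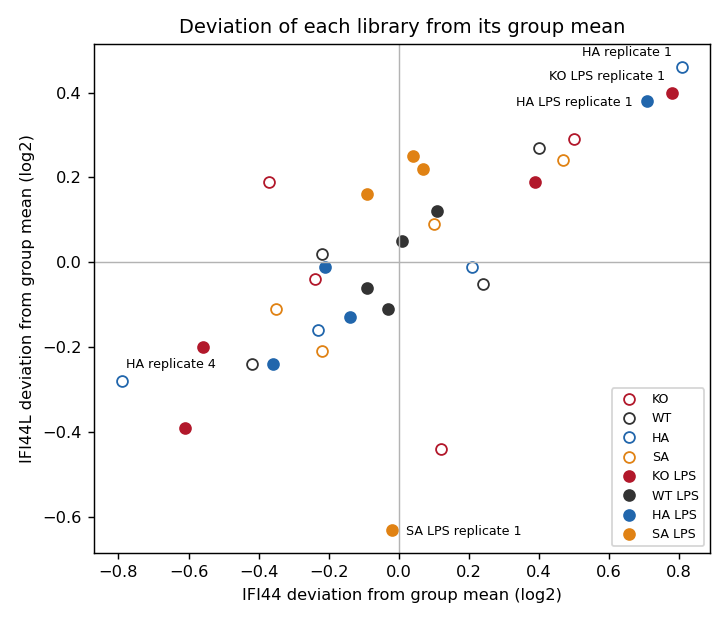
Deviation of each of the 32 libraries from its group mean on the log2 scale, IFI44 on the x axis and IFI44L on the y axis, with open symbols for untreated and filled ones for LPS libraries. Most points lie along a rising diagonal, from HA replicate 4 (-0.79 and -0.28) to HA replicate 1 (0.81 and 0.46), and SA LPS replicate 1 lies below it.

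The interferons upstream of both genes were sparse in the counts. Of 10 interferon ligand genes only IFNL1, a type III interferon, passed the filter, and IFNB1, which encodes interferon-beta, was the only type I interferon on the list with reads. Untreated KO libraries had 19.2, 25.4, 5.41 and 21.2 normalized counts of IFNL1 and HA libraries 3.05, 3.19, 1.18 and 12.3, while all WT libraries were at 0. After LPS, IFNL1 had 81.8, 136, 38.3 and 63.4 in KO, 3.48, 34.6, 8.91 and 17.1 in HA, at most 5.2 in WT and at most 8.13 in SA. The KO minus HA difference of IFNL1 after LPS was 2.49 (standard error 0.73), not called by limma (adjusted p = 1.79e-01). IFNL1 averaged 79.8 normalized counts in KO LPS libraries and at most 17.8 in any other group. It passed the filter mainly through the KO LPS group, so this difference is a description and its test decides nothing. IFNB1 had 54.6, 83.3, 0 and 3.92 normalized counts in the KO LPS libraries and at most 2.21 in any other library. KO LPS replicates 1 and 2, which held these IFNB1 counts, were also the 2 KO LPS libraries with the highest IFI44 and IFI44L. Whether the IFNB1 counts had a part in this was not tested.

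IFNLR1, the receptor gene for type III interferons on the list, had a mean of 0 normalized counts over the 32 libraries and was not tested. The 8 interferon receptor and JAK genes tested, among them IFNAR1, IFNAR2, JAK1 and TYK2, held no call in KO against HA, where 0.202% of all genes without LPS and 0.00806% with LPS were called higher. The median log2 difference of the 8 was 0.12 without LPS and 0.04 with LPS, and the largest was that of IFNGR1, 1.77 and 1.87 (standard error 0.91 each, limma adjusted p = 4.92e-01 and 4.73e-01). In either state, none of the 6 transcription factors was called. The KO minus HA differences after LPS were 0.3 for STAT2, -0.24 for IRF9, 0.59 for IRF1, 1.06 for IRF7 and 1.21 for IRF8. LPS raised IRF1 in all 4 lines, by 1.88 in KO, 0.97 in WT, 1.43 in HA and 1.41 in SA (limma adjusted p = 4.35e-08, 3.07e-03, 6.20e-06 and 5.79e-06).

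The genes linked to the known feedback role of the pair were listed as partners. FKBP5, IKBKB and IKBKE had KO minus HA differences after LPS of 0.25, 0.28 and 0.1, and none of the 3 was called in KO against HA or for LPS in any line. FKBP5 had 1176 ± 313 normalized counts in KO and 986.7 ± 270 in HA after LPS, and IKBKE had 453.5 ± 52.2 and 427.9 ± 92.5.

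Beside IFI44 and IFI44L, 54 other ISRE-type antiviral targets were listed and 53 were tested. In KO against HA, 52 of the 53 were higher by sign in either state, with a median of 0.87 without and 0.77 with LPS. Called higher by limma were 6 without LPS, where 0.202% of all genes were called, and 0 with LPS, where 0.00806% were, 1 gene, with 1308 genes of the whole table at an unadjusted p under 0.05. The 6 were RSAD2 (1.99), IFIT3 (1.8), CMPK2 (1.34), OAS1 (1.12), HERC5 (1.06) and EIF2AK2 (0.87). The count of 6 became 13 without HA replicate 1 and 13 without SA LPS replicate 1, and 1 to 3 without KO replicate 1, KO replicate 2, HA replicate 2 or HA replicate 4. The count of 0 with LPS became 1 without KO LPS replicate 3 and 3 without SA LPS replicate 1. When the 2 genes were ranked with these 53 by KO minus HA, IFI44L held place 9 without LPS and place 4 with LPS, and IFI44 place 24 and place 19.

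After LPS, the largest KO minus HA differences on that list were those of IFITM1 (2.04), TDRD7 (1.76), RSAD2 (1.68), whose product viperin blocks virus replication, and IFIT3 (1.34), an RNA-binding antiviral protein, and the smallest were TRIM14 (-0.17) and IFITM2 (0.12). Of 16 tested IFN-gamma-type targets, 2 were called higher without LPS, GBP1 (2.06) and CXCL10 (2.39), and 0 with LPS, where 0.202% and 0.00806% of all genes were called higher. With LPS, 6350 of all 12406 genes were higher by sign, and all 16 targets were, with a median of 1.08. Here the largest were SOCS1 (3.05), CXCL9 (1.95), CXCL10 (1.85) and GBP1 (1.67), and the smallest were CIITA (0.09) and WARS1 (0.16). The count of 2 became 1 without any of KO replicates 1, 2 and 4 and HA replicates 1, 2 and 4, and without KO LPS replicate 4 or SA LPS replicate 1 the count with LPS was 2.

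**Figure D5:**
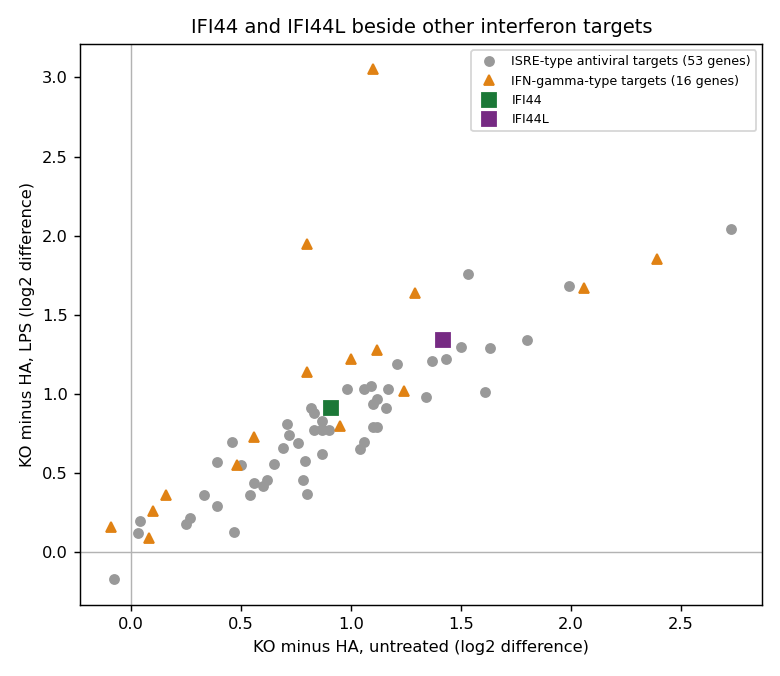
KO minus HA log2 difference without LPS (x axis) and with LPS (y axis) for the 53 ISRE-type and 16 IFN-gamma-type targets tested, each point 1 gene, with IFI44 and IFI44L as squares. IFI44 (0.91 on both axes) lies in the middle of the ISRE-type targets and IFI44L (1.42 and 1.34) towards their upper end.

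The LPS response of IFI44 lay in the upper part of this list and that of IFI44L just below its middle. Ranked with the 53 ISRE-type targets by LPS response, IFI44 held place 12 in KO, 18 in WT, 16 in HA and 12 in SA, and IFI44L place 32, 29, 35 and 34. The list's median response was 0.37 in KO, 0.66 in WT, 0.49 in HA and 0.87 in SA. In the same order, limma called 7, 7, 9 and 15 of the 53 higher, where 0.508%, 0.25%, 0.387% and 0.468% of all genes were called higher. In the paired fit these counts were 12 in KO and 30 in WT, where 0.854% and 0.943% of all genes were called higher. The KO count was 4 without KO LPS replicate 1, and the WT count was 12 without SA LPS replicate 1. IFIT2, an early antiviral target, rose by 3.87 in KO, 3.4 in WT, 3.89 in HA and 4.33 in SA. Of the 16 IFN-gamma-type targets, 6, 5, 6 and 7 were called higher, led by the chemokine CXCL9 (6.65, 4.34, 5.5 and 6.49), and the WT count was 3 without WT replicate 1 or 2 or WT LPS replicate 2, 3 or 4. The mean log2 level of the ISRE-type list ran in the order KO LPS (10.54 ± 0.25), KO (9.97 ± 0.14), HA LPS (9.76 ± 0.28), SA LPS (9.37 ± 0.05), HA (9.06 ± 0.33), WT LPS (8.88 ± 0.03), SA (8.34 ± 0.07) and WT (8.06 ± 0.11).

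Of the genes of the route from LPS to interferon-beta, 8 of 9 were tested. CD14, the LPS co-receptor, was higher in KO than in HA without LPS, by 1.85 (limma adjusted p = 3.47e-04), and fell by 2.07 with LPS in KO, 1.71 in HA and 1.43 in SA. No other gene of this list was called in these comparisons, in WT included.

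The genes whose levels ran most like each member over the 32 libraries were mostly interferon targets. For IFI44 they included DDX58 (now RIGI, an RNA sensor; r = 0.929), EPSTI1 (0.924), EIF2AK2 (0.914), SAMD9 (0.908), SAMD9L (0.907), PARP9, RAB8B and PLSCR1 (0.899 each) and HERC5 (0.898). For IFI44L they included MX2 (0.955), SAMD9L (0.948), HERC5 and GBP1 (0.946 each), EPSTI1 (0.942), OAS2 and EIF2AK2 (0.938 each), MNDA (0.936) and OAS1 (0.933). These are correlations over libraries that share lines and treatments and carry no test. IFI44 and IFI44L, although adjacent, were not each other's nearest: r between them was 0.824, rank 60 from IFI44 and rank 77 from IFI44L. Over the 8 group means it was 0.862.

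Of 34 annotated genes within 1 Mb, 30 were in the tables and 8 passed the filter, and the nearest protein-coding neighbours, PTGFR and ADGRL4, averaged at most 3.55 normalized counts in any group. NEXN, an actin-binding protein gene, rose with LPS in all 4 lines, by 1.08 in KO, 0.9 in WT, 1.18 in HA and 1.54 in SA (limma adjusted p = 3.72e-04, 7.56e-03, 1.35e-04 and 1.41e-06). Its KO minus HA difference was 0.84 without and 0.74 with LPS and was not called (adjusted p = 1.73e-02 and 6.00e-02). ZZZ3, USP33, MIGA1, NSRP1P1, FUBP1 and DNAJB4 were called neither for LPS nor in KO against HA.

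The eighth neighbour tested, ENSG00000238015, is a processed pseudogene that begins after the end of IFI44 on the same strand (chr1:78666272-78666695). It had 19.2, 14.8, 107 and 54.3 normalized counts in untreated KO libraries and 128, 43.9, 31.8 and 7.05 in HA, against at most 6.13 in WT and at most 18.8 in SA. After LPS it had 14.3 to 75.4 in KO, 11.8 to 83.5 in HA, 1.73 to 7.03 in WT, and 92.6, 1.93, 4.64 and 5.13 in SA. Its LPS responses and KO minus HA differences were not called. Reads of a processed pseudogene may also stem from its parent gene, so its counts are uncertain.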

How the data were processed

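RNA of 32 THP-1 samples was sequenced from the 3′ end (QuantSeq). Per the methods, the authors used Bbduk for trimming, STAR for mapping to GRCh38, HTSeq-count for gene counts and DESeq2 for testing. Versions and the annotation release are not given in the sources used here. The authors deposited normalized counts, written with decimal commas, in tables of 60199 rows, 92 of them spike-ins that were left out. Whole reads were recovered from 100.0% of the deposited counts in each library (tolerance 0.05 reads), and the size factors of the authors had been computed for each line by itself. Counts of all lines were therefore put on a joint median-of-ratios scale over 32 libraries and 12406 genes.

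Groups and replicate numbers came from the sample titles. With limma 3.58.1 in R 4.3.3, log2(normalized count + 1) was fitted with a mean for each of 8 groups and eBayes with a trend, with Benjamini-Hochberg adjustment and a limit of 0.01. The pseudocount understates the change of low counts. The fit was run on simulated counts of independent libraries with the same dispersion for all genes. Those hold no library that stands apart and no effect shared by replicate number, so the run does not cover these features of the data. Ratios were compared by exact permutation tests (SciPy 1.17.1). Members and gene lists were chosen with earlier results of these data known. Besides the members and each list's counts, the text names, from the ISRE-type and IFN-gamma-type lists, the 4 genes with the largest and the 2 with the smallest KO minus HA difference after LPS, all tested ligands, transcription factors and binding partners, the 10 genes most correlated with each member, and genes within 1 Mb. Of the genes this rule or the marker lists name, 2 are not reported here. The genes called in KO against HA, NEXN, IFIT2, IFNB1, IFNGR1, CD14, CD33 and ITGAM were singled out after their values were seen.

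A group's libraries all come from 1 line, so p-values measure only the spread between these libraries. Reads are not independent molecules, since no molecular identifiers were counted. Any pair of libraries within a group differed by more than counting noise (chi-square per gene of 4.739 to 291.35). Same-numbered libraries deviated together in all pairs for untreated and LPS libraries of KO (r = 0.12 to 0.67) and WT (0.26 to 0.68), but not of HA (-0.22 to 0.58) or SA (-0.14 to 0.49), nor between KO and HA (-0.31 to 0.38), so a paired fit of the LPS response is given for KO and WT. They also deviated together between KO and WT, without LPS (r = 0.33 to 0.68) and with LPS (0.18 to 0.72). The standard errors and intervals given for KO against WT are from the unpaired fit and take no account of this.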

Additional observations from a re-analysis of the deposited data

Results flagged for a closer look

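Of 16 pairs of gene and group, 2 held a library far from the other 3 by Dixon's criterion for 4 values, where chance marks about 1 pair in 20. IFI44 in HA LPS cells had 572 normalized counts in replicate 1, with a gap of 0.849 of the range to the nearest of the others. IFI44L in SA LPS cells had 684 in replicate 1, with a gap of 0.867 of the range, in the library that stood apart from its group over all genes.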

How the results depend on the processing

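The SA response of IFI44 (log2 1.48) kept its call on the deposited scale and with pseudocounts of 0.5 and 5. It lost it when scaled to total reads on genes (1.42, adjusted p = 1.76e-02, chosen after seeing the data), without a filter on low counts (1.48, 1.80e-02), with only the groups compared in the fit (1.48, 3.35e-02) and with the replicate block (1.48, 1.11e-01), and it was 1.37 to 1.64 with 1 library left out. The block brought the WT responses of IFI44 (0.96) and IFI44L (0.65) past the limit and, apart from the SA response of IFI44, changed no other call of the 2 genes. Of the differences between lines, IFI44L in SA against WT without LPS moved to 0.84 and IFI44 with LPS to 1.17 on the deposited scale. The IFI44 difference of LPS responses between KO and HA, 0, was 0.01 with a pseudocount of 5. With 1 library left out, it was -0.27 to 0.26 for IFI44 and -0.23 to 0.05 for IFI44L between KO and HA, -0.37 to 0.09 (IFI44) between KO and WT, -0.38 to 0.16 (IFI44) between HA and WT and -0.02 to 0.28 (IFI44L) between SA and WT, never called.

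Counts of list genes called higher varied more. For ISRE-type targets under LPS they were 3 in KO, 4 in WT, 5 in HA and 2 in SA with only the groups compared in the fit, against 12, 30, 12 and 1 with the block, and 4 to 8 (KO), 6 to 8 (WT), 7 to 9 (HA) and 10 to 15 (SA) with 1 library left out. For KO against HA they were 2 on the deposited scale, 0 with only the groups compared, 11 with the block and 1 to 13 with 1 library left out without LPS, and 4 and 0 to 1 with LPS under the last 2. IFN-gamma-type targets gave 3 in WT and 3 in SA with only the groups compared, 2 in SA with the block, and 3 to 5 in WT with 1 library left out. For KO against HA without LPS they gave 1 on the deposited scale, 0 with only the groups compared, 1 with the block and 1 to 2 with 1 library left out, and with LPS 2 with the block and 0 to 2. Without SA LPS replicate 1 in the shared fit, chosen after seeing the data, ISRE-type counts were 12 (LPS in WT), 13 and 3 (KO against HA without and with LPS) and the IFN-gamma-type count with LPS was 2. The numbers pair neither KO with HA nor the HA or SA libraries with their LPS libraries, which share only a number. The cause of these changes was not tested. Count models (edgeR, DESeq2) and TMM factors were not run, so calls here rest on limma alone, and low counts of IFI44 in WT (81 reads at the lowest) limit its precision.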
